A study of Mus musculus with 24 samples.

Results

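The genes examined encode surface proteins by which blood stem and progenitor cells are sorted: Kit, Flt3, Tek, Cd34, Ly6a, Procr, Slamf1 and Cd48. They were taken from a list of 9 names, in which Cd150 is the protein name of Slamf1, so 8 of the 21938 protein-coding genes of GENCODE release M 21 were followed. For each gene, the peaks of 11 deposited ATAC-seq peak lists and the sites of 3 deposited tables were taken within the gene or 50 kb of it on mm10. Merging the peaks of all lists gave 100446 regions, of which 121 lay at these genes, from 7 at Tek to 26 at Flt3. A region 53.1 kb from the start of Cd48 and -32.1 kb from that of Slamf1 lay in both windows and counted once. The tables listed 9 of 11927 (LT-HSC, 3 days), 16 of 17311 (KLS) and 42 of 50928 (DKO) sites there. Some windows hold other coding genes, such as Cdx2 beside Flt3, Ly6e, Ly6i and Ly6c1 beside Ly6a, Edem2 and Mmp24 beside Procr, Cd84 beside Slamf1 and Slamf7 beside Cd48, and a region there cannot be given to a single gene.

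ATAC-seq marks open chromatin by the insertion of adapters by the transposase Tn5. The study compared Daxx-WT (Daxx +/+) with Daxx-KO (Daxx F/F, floxed and cut by an induced Cre) mice, Daxx being a chaperone of histone H3.3, in 24 libraries of cells sorted from bone marrow. All mice were C57BL/6 and carried a Cre (Cre +/-), the Daxx-WT controls included. Long-term haematopoietic stem cells (LT-HSCs), CMPs (common myeloid progenitors) and GMPs (granulocyte-monocyte progenitors) had 2 libraries per genotype. Their labels give no time, and the methods of the study place them 3 weeks after tamoxifen, which activates the RosaCreERT2 recombinase in all tissues. A second set of LT-HSCs, taken 3 days post induction (d.p.i.) from mice with the same recombinase, comprised 3 libraries of Daxx-KO and 2 of Daxx-WT cells. KLS cells, defined as c-Kit+ Lin- Sca-1+, were taken 3 weeks post induction (w.p.i.) and comprised 3 Daxx-KO libraries, 2 of Daxx-WT and 2 of DKO cells, the last from mice floxed at both Daxx and Pu.1 (Daxx F/F Pu.1 F/F). Their labels do not name the Cre driver, while the methods describe the double-floxed mice as Mx1Cre, which was induced with pI:pC, a stimulus of interferon signalling. The labels give no age, and the methods describe replicates as biological and the sample sizes of the legends as numbers of mice. A figure legend of the study names a Daxx +/F control at 3 d.p.i., where the labels mark both controls as +/+. LT-HSCs and KLS cells with a time label were prepared by another protocol and sequenced on another instrument than the rest.

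Sorting by surface proteins rests on receptors and adhesion molecules that change as stem cells commit. Kit and Flt3 are receptor tyrosine kinases for stem cell factor and Flt3 ligand, and Tek (Tie2) is the angiopoietin receptor of stem and endothelial cells. Cd34 is a sialomucin, Ly6a encodes Sca-1, Procr the endothelial protein C receptor (EPCR), and Slamf1 (CD150) and Cd48 belong to the SLAM family, in which mouse LT-HSCs carry CD150 and lack CD48.

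All gates of the study asked for c-Kit and for absence of lineage antigens. LT-HSCs were taken as Sca-1+ CD48- CD150+ cells, at 3 d.p.i. also as Flk2- (the protein of Flt3) and Il-7Ra- cells. CMPs were Sca-1- CD34+ and CD16/32-, GMPs Sca-1- CD34+ and CD16/32+, and KLS cells Sca-1+ without a SLAM gate. Tek and Procr were in none of the gates. Of the 11 lists, the 6 without a time label give only where a peak lies, and the other 5 add its fold enrichment over background. They held 22156 to 70455 peaks. With 1 list per group, presence and width have no replicate error and were not tested. The tables rest on 4.21 to 16 reads per 600 bp window and library, as means over all windows. The p-values below rest only on the spread between libraries, which the fit shared over all listed sites in part and, in the DKO table, wholly.

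The start of a gene was called open where a peak lay within 1000 bp of the annotated start. The promoters below are those of 2 genes open in all 11 lists, Kit and Flt3, and of 2 genes open in few lists, Tek and Slamf1. They run from 250 bases before to 50 after the RefSeq start (GRCm38.p6, the build of mm10), and capitals mark matches, on either strand, to the letters GAGGAAGT of a Pu.1 motif, the letters AGATAA of a GATA factor motif or the letters TGTGGT of a Runx motif.
Kit promoter, chr5:75574737-75575036, plus strand: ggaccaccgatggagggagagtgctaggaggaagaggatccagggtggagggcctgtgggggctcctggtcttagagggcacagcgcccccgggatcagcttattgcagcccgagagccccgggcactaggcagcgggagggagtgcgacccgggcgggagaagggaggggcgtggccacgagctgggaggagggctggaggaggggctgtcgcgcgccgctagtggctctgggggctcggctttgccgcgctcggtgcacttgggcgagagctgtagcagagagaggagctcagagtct
Flt3 promoter, chr5:147400440-147400739, minus strand: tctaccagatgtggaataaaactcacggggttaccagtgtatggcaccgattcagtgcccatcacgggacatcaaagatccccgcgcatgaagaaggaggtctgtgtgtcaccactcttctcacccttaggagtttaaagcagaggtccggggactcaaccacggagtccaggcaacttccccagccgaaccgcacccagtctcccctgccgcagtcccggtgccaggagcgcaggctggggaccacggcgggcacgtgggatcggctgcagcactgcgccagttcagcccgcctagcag
Tek promoter, chr4:94739039-94739338, plus strand: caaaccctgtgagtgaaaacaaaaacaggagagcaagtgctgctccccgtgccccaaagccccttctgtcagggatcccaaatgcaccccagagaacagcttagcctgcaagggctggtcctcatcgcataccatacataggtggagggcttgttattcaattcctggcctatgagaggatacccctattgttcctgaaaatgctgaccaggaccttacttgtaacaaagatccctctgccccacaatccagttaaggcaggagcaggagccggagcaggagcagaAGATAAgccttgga
Slamf1 promoter, chr1:171766882-171767181, plus strand: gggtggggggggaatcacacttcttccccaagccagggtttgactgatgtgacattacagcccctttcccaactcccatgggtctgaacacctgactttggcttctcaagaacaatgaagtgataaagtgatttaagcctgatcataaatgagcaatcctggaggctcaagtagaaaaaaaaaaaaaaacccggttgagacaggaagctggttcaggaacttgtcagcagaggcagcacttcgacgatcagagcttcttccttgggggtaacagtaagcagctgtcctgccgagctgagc
The Kit and Flt3 promoters hold 20 and 18 CpG dinucleotides, the Tek and Slamf1 promoters 3 and 4, against a median of 7 over 32851 RefSeq promoters. The promoters of Cd34, Procr and Cd48 hold 7, 13 and 7, so 7 genes had an entry. Of all promoters, 3.20% hold the Pu.1 letters, 11.2% the GATA letters and 16.8% the Runx letters. Where matches of these motifs meet they can share bases, and a match does not show that a factor binds there.

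The stretches below are 200 bases of 4 regions whose presence or value differed between populations or genotypes, with the same capitals. They are centred on a peak of 1 list, at the midpoint of the Daxx-WT LT-HSC and Daxx-WT CMP peaks for the first and second and at the summit of the DKO and Daxx-KO KLS peaks for the other two, which need not be the centre of the merged region. Kit +7.4 kb was in both LT-HSC lists alone, Kit +29.7 kb in the CMP and GMP lists alone, Kit -7.8 kb in the DKO list alone, and Flt3 +60.7 kb held sites listed in both KLS tables. The Flt3 stretch lies within the site of the DKO table and outside that of the Daxx-KO table. Here and below, a region or site is named by the distance of its centre from the gene's start.
Kit +7.4 kb, chr5:75582106-75582305, plus strand: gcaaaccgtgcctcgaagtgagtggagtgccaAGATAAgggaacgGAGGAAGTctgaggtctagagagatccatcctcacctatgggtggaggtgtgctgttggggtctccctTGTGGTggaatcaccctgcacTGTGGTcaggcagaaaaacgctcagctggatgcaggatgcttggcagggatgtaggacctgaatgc
Kit +29.7 kb, chr5:75604514-75604713, plus strand: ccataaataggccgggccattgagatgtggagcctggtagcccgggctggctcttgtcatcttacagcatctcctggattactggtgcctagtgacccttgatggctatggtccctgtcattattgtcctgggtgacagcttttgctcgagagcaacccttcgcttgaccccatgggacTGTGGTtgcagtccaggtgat
Kit -7.8 kb, chr5:75567099-75567298, plus strand: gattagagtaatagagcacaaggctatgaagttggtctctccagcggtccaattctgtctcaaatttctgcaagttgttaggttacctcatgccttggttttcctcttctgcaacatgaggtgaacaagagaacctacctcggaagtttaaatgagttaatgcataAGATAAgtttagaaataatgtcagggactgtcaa
Flt3 +60.7 kb, chr5:147339729-147339928, plus strand: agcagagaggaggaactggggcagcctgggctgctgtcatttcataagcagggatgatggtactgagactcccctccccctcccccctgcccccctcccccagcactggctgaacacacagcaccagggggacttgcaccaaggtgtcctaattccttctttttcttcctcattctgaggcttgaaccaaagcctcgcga
Kit +7.4 kb holds 1 Pu.1, 1 GATA and 2 Runx matches, Kit +29.7 kb 1 Runx match, Kit -7.8 kb 1 GATA match and Flt3 +60.7 kb none. For comparison, of 200 bases at the centre of each of all 100446 merged regions, 6.25%, 9.22% and 20.3% hold the Pu.1, GATA and Runx letters, and of the 121 regions at these genes 7, 13 and 28 do, which is not the centring used for the 4 stretches.

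The receptor genes differed in how widely their starts were open. Kit (chr5:75574916-75656722, plus strand) had the widest start peak of the 8 genes in every list, from 1462 bp in Daxx-KO CMPs to 2035 bp in Daxx-KO LT-HSCs, between the 89.5 and 98.3 percentile of the widths of its list. Where fold enrichment was given, LT-HSCs at 3 d.p.i. had 9.66 (Daxx-WT) and 9.49 (Daxx-KO), and KLS cells 7.0 (Daxx-WT), 7.44 (Daxx-KO) and 6.24 (DKO). Kit was thus open at its start in all 11 lists, each of them from cells sorted on c-Kit.

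Flt3 (chr5:147330741-147400489, minus strand) was also open at its start in all 11 lists, including the 3 d.p.i. LT-HSCs, which were sorted as Flk2-. Its peak had 1421 and 1481 bp in Daxx-WT and Daxx-KO LT-HSCs and between 818 and 911 bp in the 4 CMP and GMP lists, at the 85.4 and 85.8 and the 68.9 to 77.0 percentile of widths. At 3 d.p.i. the Daxx-WT list had 2 peaks of 1279 bp together, the wider of 943 bp, and the Daxx-KO list 1 peak of 1469 bp. In KLS cells the widths were 1428, 1054 and 872 bp in Daxx-WT, Daxx-KO and DKO, with fold enrichments of 8.33, 8.55 and 5.21. The Flt3 start peak was the narrowest of the 3 in DKO cells, and its enrichment lay at the 55.3 percentile of its list, against 84.6 in Daxx-WT.

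Tek (chr4:94739289-94874976, plus strand) was open at its start in LT-HSCs of both genotypes and both kinds, with widths of 1248, 1247, 1154 and 1181 bp, and in Daxx-WT CMPs with 1102 bp. It had no start peak in Daxx-KO CMPs, in GMPs or in any KLS list. The start was not without reads there. A site over exon 1 in the DKO table had 41.7 and 43.9 scaled reads in the Daxx-WT KLS libraries, whose means over all windows were 7.39 and 8.19. In the KLS lists the nearest peak to the Tek start lay 124 kb away, and no KLS list had a peak within 50 kb of Tek. Tek was the only one of the 8 genes with no region in the KLS lists.

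The adhesion and SLAM genes followed other patterns. Cd34 (chr1:194938819-194961279, plus strand) had a start peak in every list but DKO, where the nearest peak lay 37.3 kb away. Its width was 1178 to 1305 bp in the 4 LT-HSC lists and 746 to 821 bp in the 4 CMP and GMP lists, although CD34 was used to gate only the latter. Peaks in the LT-HSC lists were wider in general, with a median width of 889 to 944 bp over all peaks against 607 to 661 bp in CMPs and GMPs, and the Cd34 start peak lay at the 70.0 to 76.2 percentile of widths in the former and the 61.1 to 70.9 percentile in the latter. In Daxx-WT and Daxx-KO KLS cells it was 918 and 768 bp with enrichments of 5.59 and 5.49.

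Slamf1 (chr1:171767127-171801184, plus strand) was open at its start in LT-HSCs without a time label (1138 bp in Daxx-WT, 1095 bp in Daxx-KO), in CMPs (1051 and 843 bp) and, at 3 d.p.i., in Daxx-KO LT-HSCs (1133 bp). The last of these peaks had an enrichment of 3.91, at the 13.1 percentile of its list. The Daxx-WT list at 3 d.p.i. had no peak within 4.52 kb of the Slamf1 start, although these cells were sorted as CD150+. GMPs and KLS cells had no start peak either, and their nearest peak lay 4.35 kb (Daxx-KO GMPs) to 60.5 kb (DKO) away.

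Cd48 (chr1:171682009-171705258, plus strand) was open at its start in 9 lists, 3 of them of LT-HSCs sorted as CD48-. The start held 1 peak of 1020 bp in Daxx-WT and of 1595 bp in Daxx-KO LT-HSCs, and 1 of 1569 bp in Daxx-WT CMPs. In Daxx-KO CMPs, Daxx-WT GMPs and Daxx-KO GMPs it held 2 peaks, of 1276, 1336 and 1332 bp together and with the wider of 922, 957 and 903 bp, and in Daxx-KO LT-HSCs at 3 d.p.i. 2 peaks of 1243 bp together. In KLS cells the Daxx-WT peak had 522 bp, lay 0.647 kb from the start and had an enrichment of 2.68, at the 0.60 percentile of its list. The Daxx-KO peak, which lay over the start and did not overlap that of Daxx-WT, had 1054 bp and an enrichment of 6.03, and DKO cells had no peak within 62.4 kb. Cd48 thus had a start peak in CD48- LT-HSCs, in which the 3 d.p.i. Daxx-WT list was the exception.

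Procr (chr2:155751117-155755471, plus strand) was open at its start in LT-HSCs (1666 bp in Daxx-WT, 1687 bp in Daxx-KO), with widths at the 92.9 and 91.9 percentile of their lists. The peaks were narrower in Daxx-WT CMPs (940 bp) and in GMPs (761 and 721 bp). At 3 d.p.i. and in KLS cells only the Daxx-KO lists had a Procr start peak, of 1313 and 812 bp with enrichments of 4.45 and 4.10. These enrichments lay at the 21.7 and 11.6 percentile of their lists, and neither Daxx-KO table listed a site within 1000 bp of the Procr start.

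**Figure D1:**
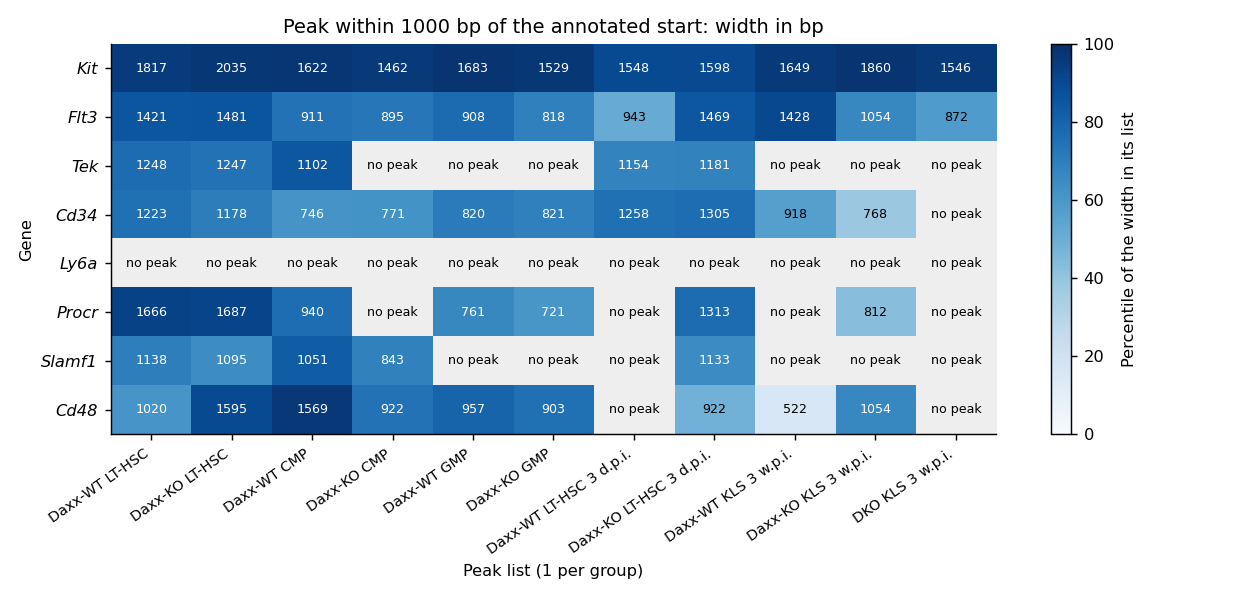
Each cell is 1 gene (row) in 1 peak list (column), with the width in bp of the widest peak within 1000 bp of the annotated start, coloured by the percentile of that width among all peaks of the list (grey, no peak). Kit and Flt3 are filled in all 11 lists, Ly6a in none, and DKO KLS cells have start peaks at Kit and Flt3 only, of 1546 and 872 bp.

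Ly6a (chr15:74994877-74998031, minus strand), which encodes the Sca-1 used to separate LT-HSCs and KLS cells from CMPs and GMPs, had no peak at its start in any of the 11 lists. The nearest peak lay 4.99 to 8.33 kb away, on the side of the gene's end, and no peak of any list lay in the 26.3 kb of chr15:74993044-75019385. The Ly6a start region was the least unique of the 8: 38.2% of its 31-base words occur once in the genome, against 74.8% at Cd48, 90.3% at Procr, 98.3% at Tek and 100% at the other 4 genes. In the 26.3 kb without a peak the share was 45.1%, and over the 121 regions the median was 100% and the lowest value 22.1%. The part of reads that map to several places in the absence of a Ly6a peak was not tested.

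As a check of the sort, the same count was made for genes of other surface proteins. Of the 8 sort genes, 7 had a start peak in the LT-HSC lists of both genotypes without a time label, in Daxx-WT CMPs and at 3 d.p.i. in Daxx-KO LT-HSCs. In Daxx-WT LT-HSCs at 3 d.p.i. 4 of the 8 had one, where 57.9% of all coding genes did (63.2% in Daxx-WT LT-HSCs without a time label). The count was 5 (62.5%) in Daxx-KO CMPs, both GMP lists and Daxx-KO KLS cells. This was near the shares of all coding genes, 56.9% in Daxx-KO CMPs, 58.1% and 55.6% in Daxx-WT and Daxx-KO GMPs and 57.4% in Daxx-KO KLS cells. It was 4 in Daxx-WT KLS cells (54.3% of all coding genes) and 2 in DKO KLS cells (47.4%). Of 5 lineage antigen genes (Ly6g, Itgam, Itgax, Klrb1c and Cd3e), none to 3 had a start peak in a list, with none in Daxx-WT LT-HSCs at 3 d.p.i. and DKO KLS cells and 3 in Daxx-WT CMPs. The starts of Ly6g and Cd3e were open in none of the 11 lists, and that of Itgam, a gene of a myeloid lineage antigen, in 9. Of 10 further stem and multipotent cell surface genes, 9 or 10 were open in the 4 LT-HSC lists, 7 or 8 in CMPs and GMPs and 4 in DKO KLS cells. Of 4 further gate genes, 2 to 4 were open. The part of other cells in the sorted populations was not tested.

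The Daxx-WT lists of LT-HSCs, CMPs and GMPs were compared next, to ask how the sort genes differ between populations. At the 8 genes 111 regions were in at least 1 of these lists. Of these, 43 (38.7%) were in all 3, 16 (14.4%) in LT-HSCs only and 43 (38.7%) in CMPs or GMPs only. Over all 91244 such regions, the share in all 3 was 42.5%, the share in LT-HSCs only 17.3% and the share in CMPs or GMPs only 29.6%. The methods describe an additional run of single reads for CMPs and GMPs only, so population and sequencing cannot be told apart here.

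Kit had the smallest share of regions in all 3 populations (2 of 17), with 10 of its 17 regions in CMPs or GMPs only and 4 in LT-HSCs only. The LT-HSC regions lay at -38.3, +7.4, +14.7 and +131.7 kb, and those at +7.4 and +14.7 kb are in intron 1. All 4 were in the Daxx-KO LT-HSC list too, and none of these 4 was in either list of LT-HSCs at 3 d.p.i. The Kit region at +29.7 kb, also in intron 1, was in CMPs and GMPs of both genotypes, with widths of 671 and 606 bp in CMPs and 580 and 516 bp in GMPs, and in no other list. The Kit region at +58.9 kb, in intron 7, was in Daxx-WT CMPs and in DKO KLS cells only.

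Flt3 had 13 of its 25 regions in all 3 populations, 4 in LT-HSCs only and 8 in CMPs or GMPs only. Its region at +11.5 kb in intron 1 was in CMPs and GMPs of both genotypes and, of the other lists, in Daxx-KO LT-HSCs alone. Tek had 2 of 6 regions in LT-HSCs only, at -27.9 and +181.0 kb, and both were in Daxx-KO LT-HSCs as well. Its region at +29.5 kb in intron 1 was in Daxx-WT CMPs alone.

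Of the 11 regions at Cd34, 2 were in LT-HSCs only and 5 in CMPs or GMPs only, among the latter +7.8 kb in intron 1, which was in the 4 CMP and GMP lists and no other. Slamf1 had no region in LT-HSCs only. Its start, the +6.2 kb region in intron 1 and the +21.9 kb region in intron 4 were in LT-HSCs and CMPs and not in GMPs. Cd48 had 2 of 14 regions in LT-HSCs only, among them +7.5 kb in intron 1, and 7 in CMPs or GMPs only, all of the latter upstream of the gene or downstream of it. Ly6a had 7 of 13 and Procr 3 of 14 regions in CMPs or GMPs only, and each had 1 in LT-HSCs only. The LT-HSC, CMP and GMP lists held 65455, 66070 and 65306 peaks, so cutting them to equal length, with the widest peaks kept, removed few peaks. The counts over the 8 genes were then the same, which says little about list length.

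**Figure D2:**
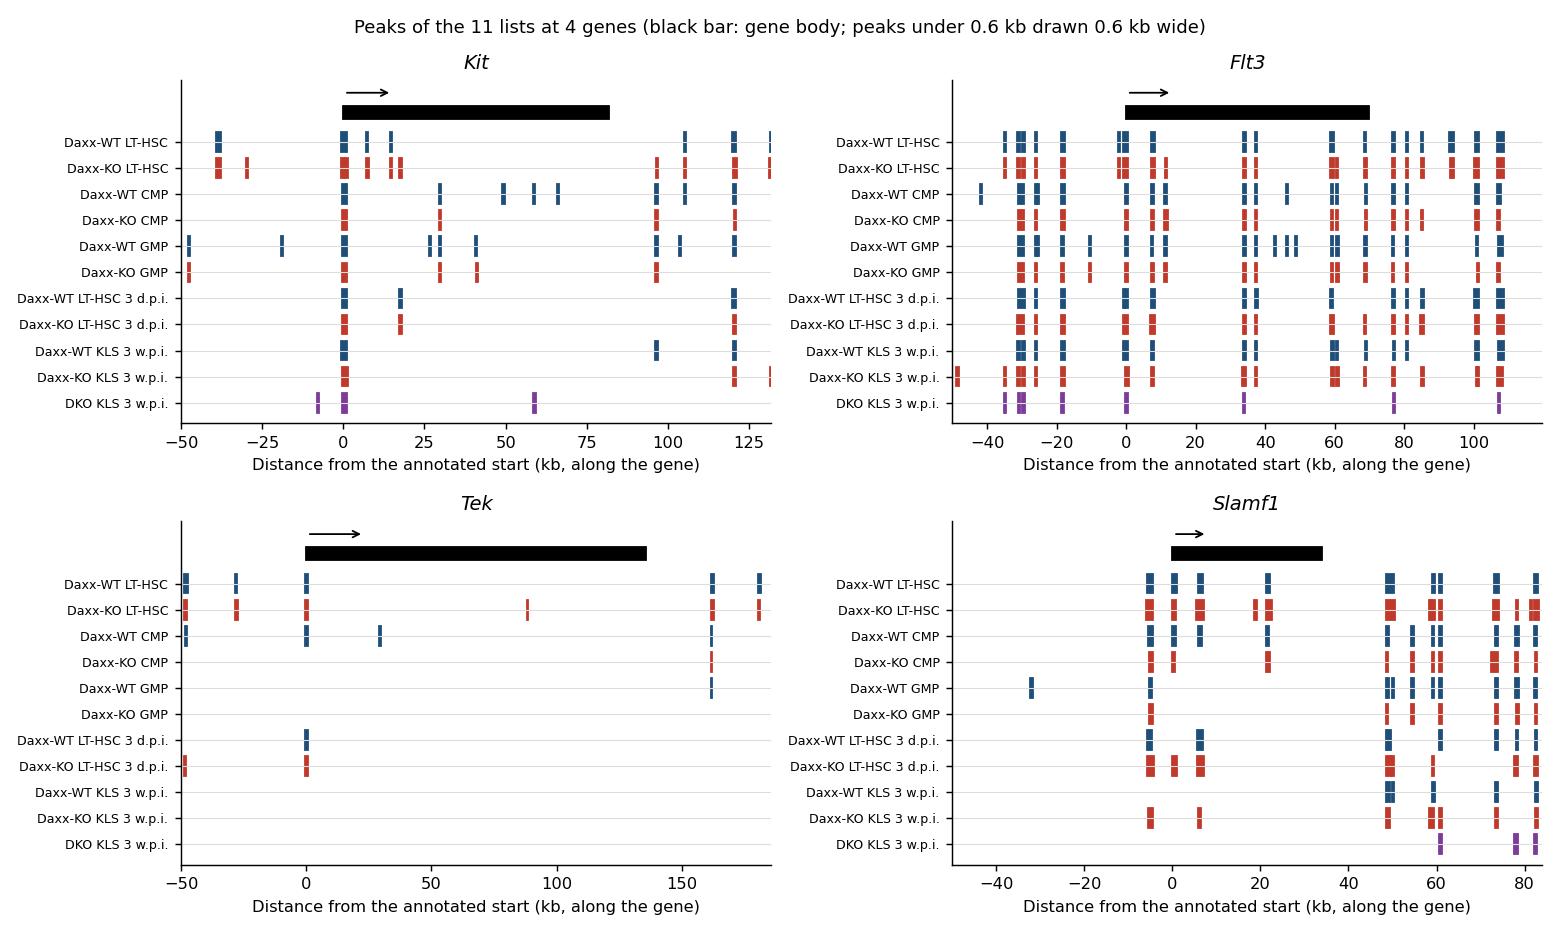
Peaks of the 11 lists at Kit, Flt3, Tek and Slamf1, drawn by distance from the annotated start in kb along the gene (x axis), with 1 row per list, blue for Daxx-WT, red for Daxx-KO and purple for DKO. The black bar is the gene, and peaks narrower than 0.6 kb are drawn 0.6 kb wide. Kit has 10 regions in Daxx-WT CMPs or GMPs only, Flt3 peaks recur in most rows, and the KLS rows of Tek are empty.

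The genotypes were then compared within each population, to ask whether Daxx loss changed which regions at the sort genes were open. In LT-HSCs, 16 of 84 regions (19.0%) were in the Daxx-KO list only and 3 (3.57%) in the Daxx-WT list only, against 13.0% and 5.93% of all regions. In CMPs the order was opposite, with 3 of 81 (3.7%) in Daxx-KO only and 20 (24.7%) in Daxx-WT only, against 4.51% and 26.7%. GMPs had 2 of 80 (2.5%) in Daxx-KO only and 22 (27.5%) in Daxx-WT only, against 3.22% and 26.3%. These shares at the sort genes were near those of all regions in CMPs and GMPs.

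At 3 d.p.i., 10 of 49 regions (20.4%) were in Daxx-KO LT-HSCs only and 2 (4.08%) in Daxx-WT only, against 22.3% and 6.59% of all regions. In KLS cells, 14 of 55 (25.5%) were in Daxx-KO only and 2 (3.64%) in Daxx-WT only, against 29.7% and 5.53%. In DKO KLS cells 8 of 49 regions (16.3%) were in the DKO list only and 26 (53.1%) in Daxx-WT only, against 12.2% and 42.1%. The Daxx-KO lists at 3 d.p.i. and in KLS cells come from 3 libraries and the Daxx-WT lists from 2, and longer lists hold more regions. With the lists of each pair cut to equal length, the share of the differing regions that were in the Daxx-KO list moved from 13.0% to 50% in CMPs, from 8.33% to 58.8% in GMPs and from 87.5% to 50% in KLS cells, and for DKO from 23.5% to 50%. In LT-HSCs it was 84.2% with the full lists and 75.0% at equal length, and at 3 d.p.i. 83.3% and 57.1%.

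**Figure D3:**
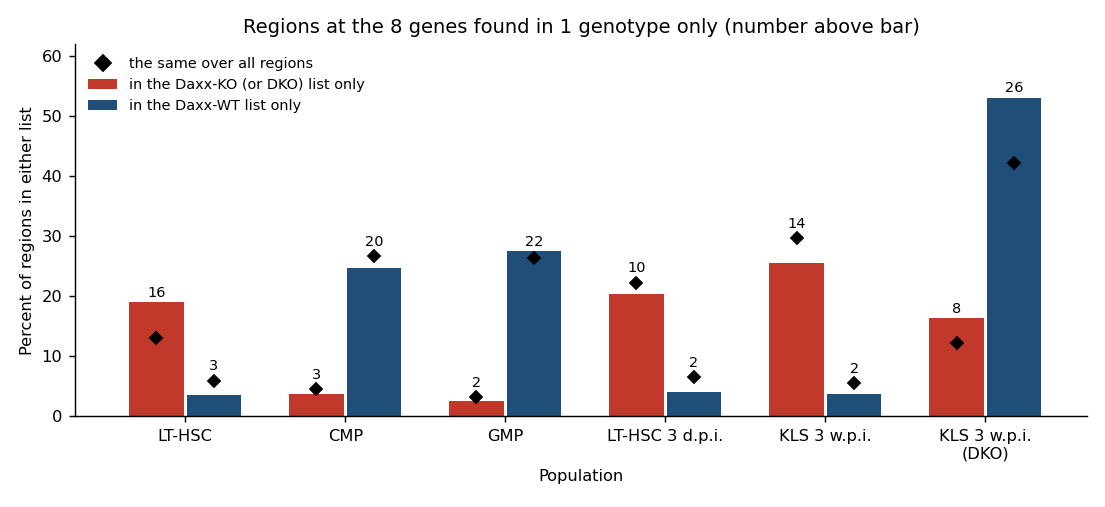
Bars give the percent of the regions at the 8 genes found in the Daxx-KO (or DKO) list only (red) and in the Daxx-WT list only (blue), for each population on the x axis, with the number of regions above each bar, and diamonds give the same percent over all regions. In LT-HSCs 16 regions were in Daxx-KO only and 3 in Daxx-WT only, and in CMPs 3 and 20. No replicate error exists for these counts.

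Among the receptor genes, regions within Kit that differed between genotypes were +17.7 kb (intron 1) in Daxx-KO but not Daxx-WT LT-HSCs, and +49.3, +58.9 and +66.1 kb in Daxx-WT but not Daxx-KO CMPs. Kit +26.5 kb was in Daxx-WT GMPs alone. Kit +17.7 kb was also in both lists of LT-HSCs at 3 d.p.i. In DKO KLS cells, Kit had 2 regions absent from Daxx-WT, at -7.8 kb (626 bp, enrichment 4.86) and at +58.9 kb. Within Flt3, +11.5 and +60.7 kb were in Daxx-KO and not Daxx-WT LT-HSCs, and +68.8 kb in Daxx-KO and not Daxx-WT LT-HSCs at 3 d.p.i. Flt3 +46.1 kb, over exon 15, was in Daxx-WT and not Daxx-KO CMPs and GMPs, and +42.8 and +48.8 kb (introns 10 and 15) were in Daxx-WT GMPs alone. The regions at +7.6, +37.4, +59.3, +60.7 and +68.8 kb, the last over exon 24, were in Daxx-WT and not DKO KLS cells. The start and +29.5 kb regions of Tek and the start of Procr were in Daxx-WT and not Daxx-KO CMPs, and Tek +88.3 kb, over exons 8 and 9, was in Daxx-KO LT-HSCs alone. With lists of equal length, in which the widest peaks were kept here, the Tek and Procr start peaks still differed between CMPs.

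Among the adhesion and SLAM genes, the Cd34 start and Cd34 +4.9 kb (intron 1) were in Daxx-WT and Daxx-KO but not DKO KLS cells. Cd34 +4.9 kb was in Daxx-KO and not Daxx-WT LT-HSCs at 3 d.p.i., and Cd34 +12.2 kb over exon 4 in Daxx-KO LT-HSCs alone. Slamf1 +18.9 kb in intron 3 was in Daxx-KO LT-HSCs alone, and Slamf1 +6.2 kb was in Daxx-KO and not Daxx-WT KLS cells but in Daxx-WT and not Daxx-KO CMPs. Cd48 +5.6 kb in intron 1 was in Daxx-WT and not Daxx-KO GMPs. Cd48 had 4 regions in Daxx-WT KLS cells and 0 in DKO, among the former +17.0 kb over exon 3. At 3 d.p.i. the start peaks of Procr, Slamf1 and Cd48 were in the Daxx-KO list only, and with lists of equal length those of Procr and Cd48 stayed so while that of Slamf1 was lost. No site was listed at these starts in the 3 d.p.i. table. In KLS cells the Procr start peak, in Daxx-KO only, was lost at equal length. For DKO, the Cd34 start peak stayed in Daxx-WT only and the Cd48 peak of Daxx-WT was lost.

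Widths of the shared regions at the sort genes moved little between Daxx-KO and Daxx-WT. The median log2 ratio of Daxx-KO to Daxx-WT width was 0.02 over 65 regions in LT-HSCs (0.04 over all shared regions), -0.06 over 58 in CMPs (-0.06) and -0.08 over 56 in GMPs (-0.07). It was 0.09 over 37 regions at 3 d.p.i. (0.06) and 0.08 over 39 in KLS cells (0.11), with an SD between regions of 0.22 to 0.37. For DKO against Daxx-WT it was -0.29 over 15 regions (-0.19), with an SD of 0.58. Among starts with a single overlapping peak in both lists, Flt3 in DKO had a log2 ratio of -0.71 and Cd48 in LT-HSCs one of 0.65.

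The tables give reads per library, which the authors divided by a constant per library. The authors listed only windows past their own p-value threshold of 0.0001, and the groups did not overlap at 99.5%, 99.6% and 100% of all sites in the LT-HSC, Daxx-KO KLS and DKO tables. All listed sites were fitted with limma on log2(value + 1), with p-values adjusted (Benjamini-Hochberg) for the full number of windows given in each header, and a site was called at an adjusted p under 0.05. The fold is understated at low values on this scale. Dividing by the mean reads per window of each library instead moved the median difference of all sites by 0.33 in the LT-HSC, 0.47 in the Daxx-KO KLS and -0.67 in the DKO table. Since the listed sites were chosen from the same libraries, the test is not independent of that choice.

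At 3 d.p.i., 9 sites lay at the sort genes, 4 with more (44.4%, against 29.1% in the whole table) and 5 with fewer reads in Daxx-KO LT-HSCs. None was called, as in the whole table (0.0% of 11927 sites), while 9 of the 9 had an unadjusted p under 0.05 (96.0% of all sites) and limma-voom on recovered reads called 5 (67.1% of all sites). With reads divided by the mean reads per window instead, 5 of the 9 had an unadjusted p under 0.05 (limma) and 0 were called. The median difference at these genes was then -0.36 against -0.69. Of all sites, 9 higher and 6 lower were then called, and 2625 higher and 2170 lower had such a p. At Slamf1 +18.9 kb (intron 3), the Daxx-KO libraries had 22.9, 19.1 and 31.7 scaled reads and the Daxx-WT libraries 10.1 and 4.69. The groups did not overlap, with a log2 difference of 1.65 ± 0.35 (SE, limma, n = 3 and 2, adjusted p = 0.301). This site lies at a region found only in the Daxx-KO LT-HSC list without a time label, and in neither 3 d.p.i. list. At Slamf1 +9.9 kb, over exon 3, the Daxx-KO values were 26.6, 13.4 and 12.7 against 37.2 and 39.4, and all 3 were below both Daxx-WT values (-1.16 ± 0.34, limma adjusted p = 0.420).

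Kit +17.4 kb, in intron 1, had 98.2, 75.4 and 88.7 scaled reads in the Daxx-KO LT-HSC libraries against 146 and 136 in those of Daxx-WT. All Daxx-KO values were lower (-0.69 ± 0.23 on the log2 scale, SE). At Kit +21.9 kb the values were 17.4, 8.59 and 13.7 against 31.6 and 28.1, and they did not overlap either (-1.16 ± 0.31). Kit +102.4 kb had Daxx-KO values of 39.5, 45.8 and 46.5 against 23.7 and 17.8, all higher (1.06 ± 0.24). Flt3 +68.5 kb in intron 23 had 46.8, 42.0 and 51.7 against 24.8 and 25.3 (0.87 ± 0.22), and Cd48 -14.7 kb had 57.8, 41.0 and 58.1 against 20.3 and 11.3 (1.71 ± 0.31), both with the Daxx-KO values above.

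Procr +2.4 kb, over exon 2, had 17.4, 24.8 and 26.4 scaled reads in the Daxx-KO LT-HSC libraries against 51.8 and 43.1 in those of Daxx-WT. The Daxx-KO values were lower in all libraries (-1.04 ± 0.26). The other Procr site, at -48.4 kb, had -1.51 ± 0.34. No site was listed at Tek, Cd34 or Ly6a. The adjusted p over the 9 sites ran from 0.301 to 0.684 (limma).

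In KLS cells, 16 sites were listed at the sort genes, 2 with more (12.5%, against 19.1% in the whole table) and 14 with fewer reads in Daxx-KO, so most sites were lower here as in the table. None was called (0.0% of 17311 in the table), 16 of 16 had an unadjusted p under 0.05 (96.8% of all sites) and limma-voom called 13 (66.3% of all sites). Kit had 5 sites, all lower. At Kit +7.7 kb, at the intron 1 region found in LT-HSCs only, the Daxx-KO libraries had 31.2, 22.7 and 33.9 scaled reads and the Daxx-WT libraries 73.9 and 45.9. No value overlapped (-0.99 ± 0.34, limma, n = 3 and 2, adjusted p = 0.50). At Kit +37.8 kb in intron 4 the values were 6.68, 13.1 and 10.4 against 31.9 and 24.1, again lower in all Daxx-KO libraries (-1.42 ± 0.35). Kit +8.4 and +53.4 kb differed by -1.18 and -1.29, and Kit +96.1 kb by -1.31.

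Flt3 had a site on each side of zero. At Flt3 +61.1 kb in intron 20 the Daxx-KO libraries had 83.5, 52.5 and 52.7 scaled reads and the Daxx-WT libraries 32.8 and 24.1, so all were higher (1.10 ± 0.34, limma, adjusted p = 0.344). At Flt3 -2.2 kb the values were 46.8, 45.5 and 32.0 against 88.5 and 59.6, all lower (-0.82 ± 0.33). Cd34 +12 kb over exon 4 had 4.45, 12.3 and 12.2 against 28.3 and 24.1 (-1.46 ± 0.43), also without overlap.

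Slamf1 had 4 sites in KLS cells, all downstream of the gene and all lower in Daxx-KO, with differences of -1.58 to -0.81. The nearest, at +47.0 kb, had 11.1, 4.37 and 12.2 scaled reads against 27.4 and 27.5 in Daxx-WT (-1.58 ± 0.42). Ly6a +32.1 kb had 18.9, 5.25 and 15.1 against 30.1 and 30.95 (-1.32 ± 0.48), with no overlap. Cd48 -38.3 kb, the other site with more reads, had 32.3, 38.5 and 35.8 against 14.6 and 19.5 (1.03 ± 0.29). Tek and Procr had no site. Of the 14 lower sites, 7 lay outside every peak of the 11 lists.

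The DKO table was fitted in the same way, with 42 sites at the sort genes, 21 higher and 21 lower in DKO than in Daxx-WT KLS cells. Called were 18 higher (of all sites, 67.3%) and 9 lower (of all sites, 14.9%). It uses the same Daxx-WT libraries as the Daxx-KO table, divided by other constants. Of the listed sites, 50% were higher in DKO at the sort genes and 72.1% in the whole table, and of the called sites 81.8% were higher in the whole table. When reads were divided by the mean reads per window of each library instead, 4 higher (Kit -6.6, Tek -28.6, Procr +37.3 and Slamf1 +18.1 kb) and 21 lower sites at the sort genes were called. With that scaling 3321 higher and 13847 lower of all 50928 sites were called, so 19.3% of the called sites in the table were higher. The DKO libraries had 9.98 and 16 reads per window on average and the Daxx-WT libraries 8.35 and 7.45, and after the authors' scaling the means were 10.6 and 14.95 against 7.39 and 8.19, so all windows together were higher in DKO. Without DKO library 1 or without DKO library 2, limma called 0 sites at these genes (36 at an unadjusted p under 0.05 in each case), with the lone library assumed to vary like the other group. Without Daxx-WT library 1 it called 18 and without Daxx-WT library 2 it called 21. In this table, limma gave the same SE of 0.36 to all sites. The p-values there follow from the log2 difference alone, not from the spread of a site's own libraries.

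Among the receptor genes in DKO cells, Kit had sites of both directions. At Kit -6.6 kb the DKO libraries had 44.5 and 41.2 scaled reads and the Daxx-WT libraries 3.55 and 6.58, which did not overlap (2.90 ± 0.36, limma, n = 2 and 2, adjusted p = 3.40e-12). At Kit -7.7 kb, at the peak found in the DKO list alone, the values were 90.1 and 90.9 against 16.9 and 37.3, again higher in both DKO libraries (1.81 ± 0.36, limma adjusted p = 3.81e-05), and with the other scaling it was not called. Kit +58.7 kb in intron 7 had 188 and 110 against 39.1 and 60.3 (1.54 ± 0.36, limma adjusted p = 5.23e-04), and 0.86 with the other scaling, past no threshold. Kit +3.3 kb in intron 1 had 73.2 and 84.3 against 43.5 and 43.9 and was not called. The sites downstream of Kit at +96.2 and +120.4 kb were lower in DKO, with log2 differences of -1.10 and -1.31.

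Flt3 had 11 sites in the DKO table, 8 lower, of which 2 were called, and 3 higher, of which 3 were. At its start, the DKO libraries had 161 and 147 scaled reads and the Daxx-WT libraries 290 and 277. The groups did not overlap, yet the site was not called (-0.88 ± 0.36, limma adjusted p = 0.139), and it was called at -1.57 with the other scaling. Flt3 +37.3 kb in intron 9 had 24.4 and 49.7 against 114 and 89.9, lower in both DKO libraries (-1.51 ± 0.36, limma adjusted p = 6.81e-04). Flt3 +7.6 kb in intron 1 had 76.4 and 84.3 against 162 and 175 (-1.06 ± 0.36, limma adjusted p = 0.0341). The other lower sites, among them +34.1 kb over exon 9 (-0.82), +60.6 kb in intron 20 (-0.93) and +80.4 kb (-0.87), were not called. With the other scaling all 8 lower sites were called and none of the 3 higher ones. All 8 lower sites lay at peaks and the 3 higher sites, at -14.7, -22.7 and -42.9 kb, outside every peak. At Tek, the site over exon 1 had 19.1 and 22.5 in DKO against 41.7 and 43.9, lower in both DKO libraries but not called (-1.01 ± 0.36, limma adjusted p = 0.0517, and called at -1.68 with the other scaling), and the site at -28.6 kb had 29.7 and 40.3 against 7.99 and 5.48 (2.22 ± 0.36, limma adjusted p = 2.29e-07).

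Cd34 had lower values in DKO at all 3 of its sites, of which the start alone was called. The sites at +4.9 kb and near -11 kb both differed by -0.90, and with the other scaling all 3 were called. At its start, over exon 1, the DKO libraries had 41.4 and 81.5 scaled reads and the Daxx-WT libraries 185 and 133. The groups did not overlap (-1.42 ± 0.36, limma adjusted p = 0.00165), and the start peak of Cd34 was absent from the DKO list. Ly6a was the only one of the 8 genes whose sites were all higher, with 5 sites, 4 of them called. Ly6a +5.5 kb, 1.5 kb beyond the end of the gene, had 210.0 and 133 against 57.7 and 65.8 (1.43 ± 0.36, limma adjusted p = 0.00154), with no overlap. With the other scaling it was 0.74 and past no threshold, nor was any other site of Ly6a.

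Procr had 4 lower sites and 3 higher ones. At Procr +6.2 kb, just past the gene, the DKO libraries had 17.0 and 37.5 scaled reads against 77.2 and 62.5, lower in both (-1.42 ± 0.36, limma adjusted p = 0.00157). Slamf1 +18.1 kb in intron 3 had 28.6 and 34.7 against 4.44 and 9.87, higher in both (2.08 ± 0.36, limma adjusted p = 1.50e-06). Cd48 +3.0 kb in intron 1 had 32.9 and 46.8 against 15.1 and 14.3 (1.36 ± 0.36, limma adjusted p = 0.00274), higher although Cd48 had no peak in the DKO list. With the other scaling it was 0.69 and not called. Slamf1 +50.1 and Cd48 -21.4 kb were lower and called with either scaling (-1.06 and -1.05 with that of the authors). Of the 21 higher sites at the 8 genes, 12 lay outside every peak of the 11 lists, and all 21 lower sites lay at one.

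**Figure D4:**
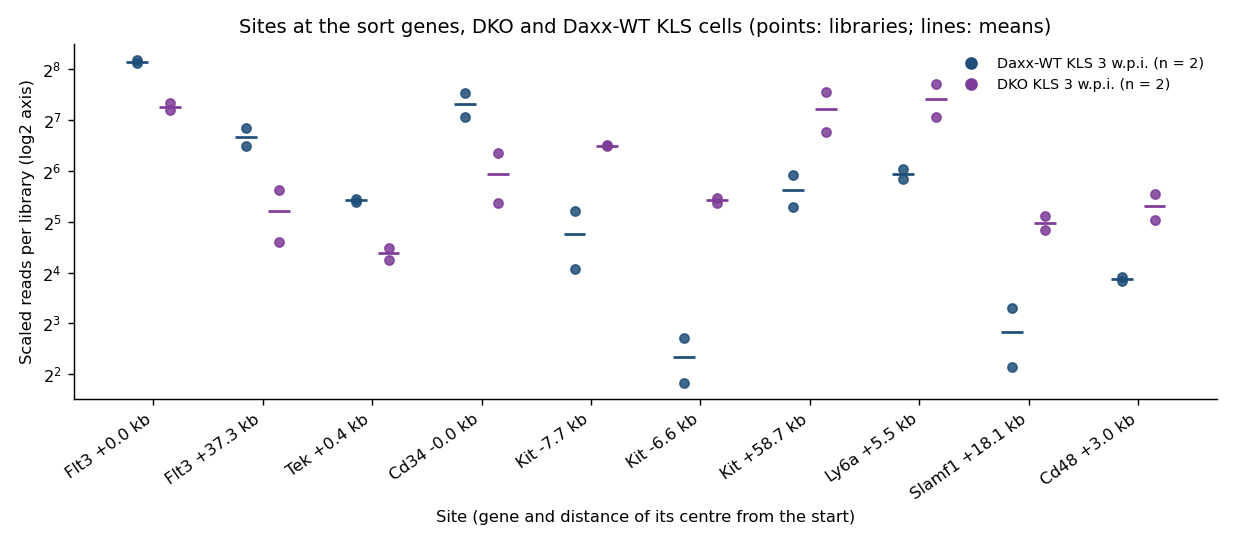
Scaled reads (log2 axis) of each library at 10 sites of the DKO table, with points for libraries (n = 2 per group) and lines for means, blue for Daxx-WT and purple for DKO KLS cells. DKO lies below Daxx-WT at the 4 sites at Flt3, Tek and Cd34 and above it at the other 6. The groups overlap at none of the 10 sites, as at 50909 of all 50928 listed sites.

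**Figure D5:**
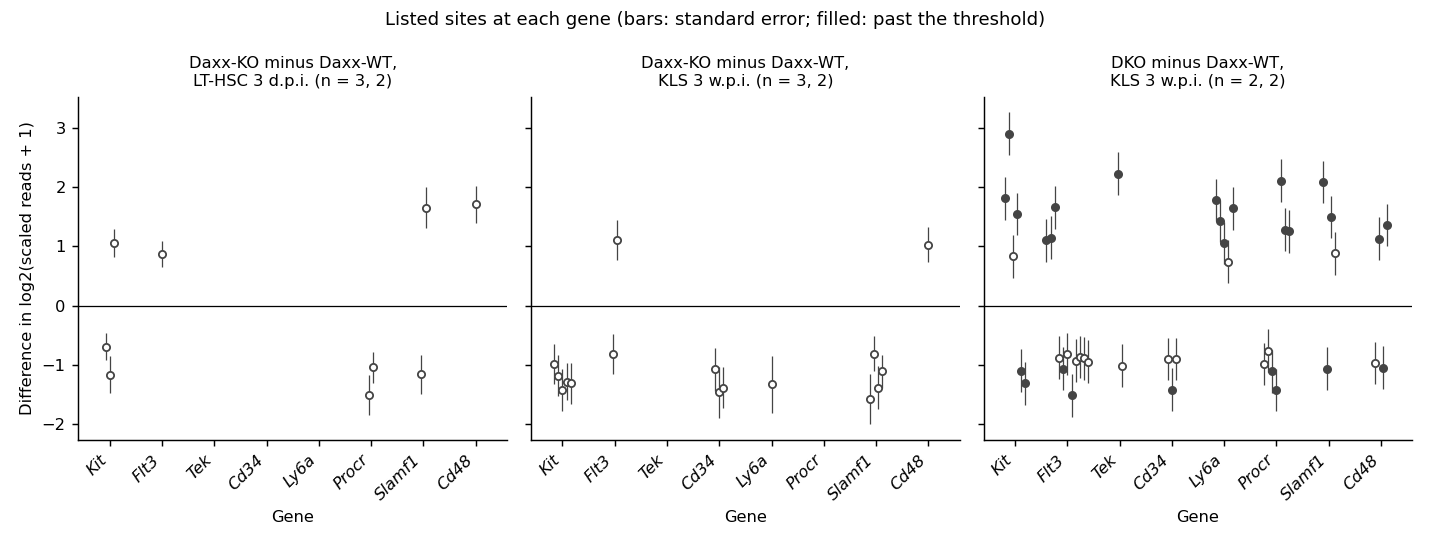
Difference in log2(scaled reads + 1), Daxx-KO or DKO minus Daxx-WT, of every listed site at each gene, with bars for the standard error and filled points for sites past the threshold. No site is filled in the Daxx-KO tables, and 27 of 42 are in the DKO table, where the sites of Ly6a are all above zero and those of Cd34 all below, as with the other scaling.

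Sites of the Daxx-KO and DKO tables of KLS cells met at 4 places, and both share the Daxx-WT libraries. Kit +96.1 kb differed by -1.31 in Daxx-KO and the overlapping site by -1.10 in DKO, the Cd34 sites near -11 kb by -1.08 and -0.90, and the Slamf1 sites near +50 kb by -0.81 and -1.06. The Flt3 sites near +61 kb differed by 1.10 and -0.93, with Daxx-WT means of 28.5 and 93.9. They overlapped only in part (chr5:147339101-147339700 in Daxx-KO, chr5:147339401-147340450 in DKO). The Cd34 sites did so too (chr1:194926651-194927750 and chr1:194927701-194928300), so the paired values need not describe the same element.

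As a description of likeness, the share of each list's bases that lay at a gene was correlated over the 11 lists, which share cells, genotypes and processing, with the genes of the lists above that lie over 100 kb away. Tek was most like Slamf1 (Pearson's r = 0.67), and its next gene was Kit (0.09). Slamf1 was next most like Esam (0.42). Kit was most like Cd3e (0.72) and Ly6g (0.67), Flt3 like Esam (0.65) and Cd27 (0.62), and Procr like Esam (0.62) and Flt3 (0.55). Cd34 was most like Ptprc (0.80) and Cd244a (0.70), and Cd48 like Itgax (0.90) and Itgam (0.85). The likeness of Ly6a is not reported here.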

How the data were processed

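ATAC-seq libraries were sequenced and mapped to mm10 by the authors, whose notes name CASAVA 1.8.4, cutadapt 1.13, STAR 2.5.3, bedtools and diffReps 1.55.6. The deposited peak lists hold 1 list per group, not per library. In the scored lists, the authors give each peak a fold enrichment (ratio) over background, and an interval listed several times was used once, at its highest enrichment. The site tables were made by the authors with diffReps in windows of 600 bp, and only windows that passed its test were deposited. Per the file headers they hold, for each library, reads divided by a constant, and a group mean signal, of which the per-library values were used. Columns of the authors' comparisons (log2 fold change, p-value, adjusted p-value) were not used.

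Peaks were merged into regions where they shared 1 bp or more. Genes came from GENCODE M 21, and 0 peaks lay past the ends of the 21 chromosomes of the reference. Sites were fitted with limma 3.58.1 in R 4.3.3 on log2(value + 1), with p-values adjusted over all windows tested. The fit was first tested on simulated data. Planned edgeR fits were not run, because the tables hold scaled values, and limma-voom on whole reads recovered from these values (within 0.05 reads) was added after the data were seen. The replicate numbers of the KLS libraries did not pair the samples (r from -0.052 to 0.052 between Daxx-KO and Daxx-WT deviations, -0.003 for DKO). The shares of 31-base words were counted in the reference genome with Python 3.11.15.

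The genes, gene lists and tests were chosen with earlier results of these data known. The text names the region over each gene's start, regions found in the LT-HSC but not the CMP and GMP lists of Daxx-WT cells or the reverse, regions within a gene that differed between genotypes, all sites within a gene and the nearest site outside it. One gene of the lists is not reported here and enters no count. Other regions and sites named were chosen after their values were seen.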

Additional observations from a re-analysis of the deposited data

How the results depend on the processing

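The share of differing regions at the sort genes found in the Daxx-KO or DKO list only was 84.2% in LT-HSCs, 13.0% in CMPs, 8.33% in GMPs, 83.3% at 3 d.p.i., 87.5% in KLS cells and 23.5% for DKO. Counting only peaks within the genes gave 100% in LT-HSCs, 0% in CMPs, 0% in GMPs, 100% at 3 d.p.i., 100% in KLS cells and 10% for DKO. Within 10 kb it was 0% in GMPs and 100% at 3 d.p.i. and in KLS cells. With lists of equal length it was 50% in CMPs, 58.8% in GMPs, 50% in KLS cells and 50% for DKO. With the stronger peaks of each list it was 100% in KLS cells and 7.69% for DKO. These settings differ in how many regions they keep, and no other cause was tested. Within the genes few differing regions were left, in KLS cells the Procr start and Slamf1 +6.2 kb alone. The share over all regions is not given at these settings. By Daxx-WT population, the share in LT-HSCs only was 8.70% to 17.1% over the alternatives (14.4% reported) and that in CMPs or GMPs only 34.8% to 39.4% (38.7%). The median log2 width ratio moved by less than its SD between regions in all alternatives.

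The number of called sites was 0 at 3 d.p.i., 0 in KLS cells and 27 for DKO (0.0%, 0.0% and 82.2% of all sites). Adjusted over the listed sites alone, which were selected by the authors, it was 9, 16 and 42. Of all sites, this called 3068 higher and 8360 lower of 11927, 2873 and 13838 of 17311, and 36573 and 13444 of 50928. With limma-voom the number at the sort genes was 5, 13 and 41 (67.1%, 66.3% and 96.7% of all sites). A pseudocount of 5 gave 2 in KLS cells, where 539 higher and 3824 lower of all 17311 sites were called. Within the genes, 10 kb or 100 kb, DKO had 6 of 12, 11 of 17 and 46 of 65 listed sites called, against 82.2% of all sites. Leaving out each library in turn gave 0 to 21 for DKO, with 0 without either DKO library, when 0 of all 50928 sites were called. As a replicate block, the replicate number gave 1 called site in KLS cells and 28 for DKO. Of all sites, this block called 223 higher and 2073 lower of 17311 in KLS cells and 34559 and 8046 of 50928 for DKO. At 3 d.p.i. no block could be made because the columns carry no replicate numbers. Of 422 refits of 41 named sites, 324 kept direction and call, 66 gained the call, 32 lost it and 0 changed direction. The authors chose the sites on these libraries and the groups did not overlap at any of them. Most of these settings could therefore not change a direction. Depth was 4.21 to 16 reads per window, and with 1 list per group no difference in presence or width has an error.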
